A study of Mus musculus with 8 samples.

Results

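The cyclin-dependent kinase inhibitor genes Cdkn1a, Cdkn1b, Cdkn1c, Cdkn2c and Cdkn2d and the pocket protein genes Rb1, Rbl1 and Rbl2 were examined in lenses of mouse embryos at embryonic day 15.5 (E15.5). They were taken with every probe set that the annotation of the array assigns to 1 of the 8 genes alone, which gave 8 of 12393 genes and 12 of the 22626 probe sets that are not array controls. Cdkn1a, Cdkn1b, Rbl1 and Rbl2 had 2 probe sets each and the other 4 genes had 1. Lenses of 4 dnBrg1 transgenic embryos were compared with lenses of 4 wild type littermates, all of a mixed background, with 1 array per sample. The protocols give 50 ng of total RNA amplified for each, whereas the descriptions of all 4 wild type samples and of dnBrg1 replicates 1 and 2 name polysome-bound RNA, and which was used is undecided. The transgene encodes a dominant-negative Brg1, the ATPase of SWI/SNF chromatin remodeling complexes, inactivated by a point mutation at the site that binds ATP and carrying a FLAG tag. It is driven by a fragment of the αA-crystallin promoter, which acts in postmitotic lens fiber cells, and comes from a single transgenic founder, carried as heterozygotes. Epithelial cells, which divide, are part of the same RNA, and in whole lenses fewer cells of a type and less RNA per cell cannot be told apart.

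Cells decide on division in the G1 phase. D-type cyclins with Cdk4 or Cdk6, and then cyclin E with Cdk2, phosphorylate the pocket proteins pRb (Rb1), p107 (Rbl1) and p130 (Rbl2), which otherwise hold E2F transcription factors and repress the genes of DNA synthesis. INK4 inhibitors (Cdkn2c, Cdkn2d) bind Cdk4 and Cdk6, and CIP/KIP inhibitors (Cdkn1a, Cdkn1b, Cdkn1c) bind cyclin-kinase complexes more widely. In the mouse lens, epithelial cells leave the cell cycle at the equator as they become fiber cells, p27 (Cdkn1b) and p57 (Cdkn1c) act together in that exit, and fiber cells without pRb replicate DNA and die. Brg1 is a known partner of pRb in the repression of E2F-dependent genes.

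Levels are given as log2 intensity, and a log2 fold change is dnBrg1 minus wild type, followed by its standard error. A probe set was called when its adjusted p (limma over all 22626 probe sets, Benjamini-Hochberg) was under 0.05. The lens fiber markers Cryaa, Crybb1, Cryba1, Crygd, Mip and Bfsp1 all read above the median of all probe sets (7.69 on the log2 scale), and probe sets below it are called dim. Smarca4, the gene of Brg1, rose with its dimmer probe set (2.35 ± 0.21 in log2, adjusted p = 4.8e-05; 1.26 with the control difference, defined next, as a covariate, limma adjusted p = 0.066). Its brighter one gave -0.24 ± 0.11 (adjusted p = 0.12) and was called lower without wild type replicate 2 (limma adjusted p = 0.041). The authors reported higher Brg1 transcripts in dnBrg1 lenses on the arrays and by qRT-PCR. A measure of the 2 ends of transcripts set the genotypes apart. The array's own probe sets for the 3' and the 5' part of β-actin and Gapdh, averaged over both transcripts, differed by 0.59 to 0.65 (log2) on the dnBrg1 arrays and by 1.43 to 2.66 on the wild type arrays. Each transcript alone reached the lowest p possible with 70 assignments (two-sided exact permutation p = 0.029, adjusted p = 0.029). It is called the control difference here and is given beside the members it moves with. Summed intensity of 6 macrophage markers ran from 1556 to 2936 in dnBrg1 lenses and from 3715 to 5040 in wild type lenses, while 3 of the 6 were called higher, 1 lower, and 3 were dim. That of 6 skeletal muscle markers ran from 678 to 5035 in dnBrg1 lenses and from 473 to 934 in wild type lenses, with 1 called higher and 4 dim. That of 7 markers of cycling cells ran from 10685 to 13044 in dnBrg1 lenses and from 10519 to 12146 in wild type lenses, with 1 called higher and 1 lower. Of 7 neuronal and retinal markers 4 were called lower and 1 higher. Of 6 lens fiber markers 1 was called higher and 1 lower, of 5 lens epithelium markers 2 and 2, and of 6 endothelium markers 2 and 2. Of 4 pigment cell markers 1 was called lower, and no mesenchyme or erythroid marker was called. The sum of 6 mesenchyme markers ran from 3749 to 12235 in dnBrg1 lenses and from 4268 to 7354 in wild type lenses. Over the brightest probe sets of all genes 17.5% were called higher and 23.3% lower. The part of any of these in the results below was not tested.

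RefSeq promoter sequences (GRCm38.p6, 250 bases before to 50 bases after a start site) were at hand for 6 of the 8 genes, as 8 promoters. Both strands were searched for the E2F site (TTTCCCGC, TTTCGCGC, TTTGCCGC or TTTGGCGC), the CCAAT box, the GC box (GGGCGG) and the CHR element of cell cycle genes (TTTGAA or TTTAAA). No match in these 8 promoters overlapped another. In the order given, these motifs occur in 2.26%, 37.4%, 35.7% and 27.6% of all 32851 promoters. Windows are shown for the genes with the largest fold changes between the genotypes (Cdkn1b, Cdkn2d and Rbl2) and for Rbl1, the single gene of these 6 with a match to the E2F site. Each is written 5' to 3' on the strand of the gene with the match in capitals.
Rbl1, E2F site that begins 18 bases before the start site, chr2:157204534-157204563, minus strand: aagaaggcgatTTTCGCGCgctttgtcgcg
Rbl2, CHR element, chr8:91069887-91069916, plus strand: tgagagatgcttTTTAAAacggtagaggac
Cdkn1b, CCAAT box that begins 161 bases before the start site, chr6:134920228-134920257, plus strand: tcacgcgaccagCCAATgtcctggcggcgc
Cdkn1b, CCAAT box that begins 35 bases before the start site, chr6:134920354-134920383, plus strand: ccggcgccgagaCCAATggagctcctcctc
Cdkn2d, GC box that begins 106 bases before the start site, chr9:21291298-21291327, minus strand: gggcggggcctgGGGCGGgcttgcctcgcc
Not every match in these genes is shown. The Cdkn2d promoter held 5 matches to the GC box and the Cdkn1b promoter 3 to the CCAAT box and 1 to the GC box. To the CHR element the Rbl2 promoter held 2 matches and the Cdkn1b promoter 1, which begins 15 bases before the start site. These are matches of letters and not sites of binding.

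Of the 12 probe sets, 4 were called higher in dnBrg1 lenses and 2 lower, and the groups did not overlap in any of these 6. The higher ones were both probe sets of Rbl2, the single one of Cdkn2d and 1 of Cdkn1b. The lower ones were the other Cdkn1b probe set and that of Cdkn1c. Cdkn1a, Cdkn2c, Rb1 and Rbl1 did not pass the test. Over all probe sets 40.8% were called (19.8% higher and 21.0% lower), and in 40.1% the groups did not overlap (19.5% higher and 20.6% lower), so the share of called members, 6 of 12, was near that of the whole array. The median log2 fold change was 0.08 over the 12 probe sets and -0.08 over all.

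**Figure D1:**
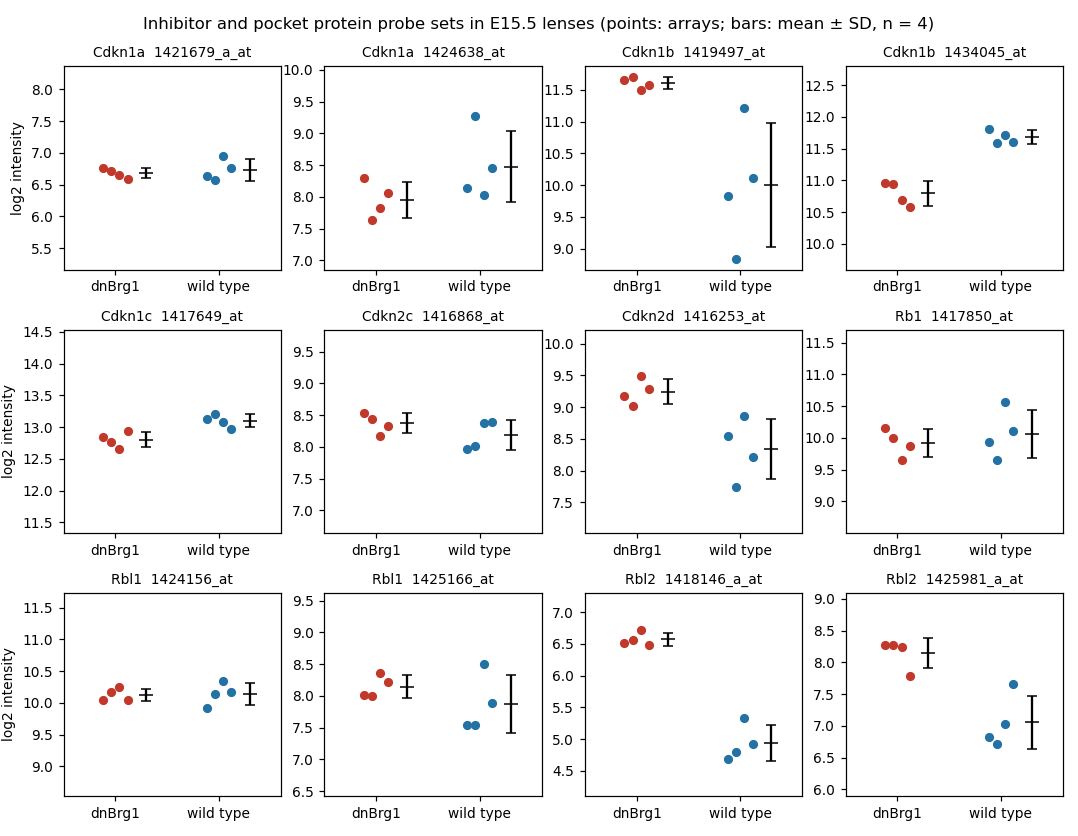
Log2 intensity (vertical axis, the same span in each panel) of the 12 probe sets on each dnBrg1 (red) and wild type (blue) array, with the mean and SD of 4 arrays at the right of each group. For genes with a pair of panels the dimmer probe set comes first, except for Rbl1. The groups are apart in both Rbl2 panels, in Cdkn2d, in Cdkn1c and, in opposite directions, in both Cdkn1b panels.

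Cdkn1b, which encodes p27, was called in opposite directions by its 2 probe sets. With the dimmer of its 2 probe sets it read 11.65, 11.70, 11.50 and 11.57 on the 4 dnBrg1 arrays, and 9.83, 8.84, 11.22 and 10.11 on the 4 wild type arrays. The dnBrg1 arrays lay within 0.20 of each other, the wild type arrays spanned 2.38, and every dnBrg1 value was above every wild type value. Cdkn1b rose 3.05-fold by this probe set (log2 fold change 1.61 ± 0.40, adjusted p = 0.011). With the brighter probe set it read 10.96, 10.95, 10.68 and 10.57 in dnBrg1 lenses, and 11.81, 11.58, 11.72 and 11.61 in wild type lenses. Here both groups were tight, with spans of 0.39 and 0.23, and dnBrg1 lay below wild type throughout. By this probe set Cdkn1b fell (log2 fold change -0.89 ± 0.12, adjusted p = 0.00041), which is 1.85-fold lower. Averaged over both probe sets, the gene was at 0.36 ± 0.22 and did not pass (limma adjusted p = 0.23, over 1 mean value per gene). The authors reported higher Cdkn1b in dnBrg1 lenses by qRT-PCR on independent pools of lens RNA. They list the dimmer probe set for this gene.

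In wild type lenses the highest and lowest values of the dimmer Cdkn1b probe set fell on the arrays with the extremes of the control difference. Wild type replicate 3, with the smallest control difference in its group (1.43), read highest at 11.22, and replicate 2, with the largest (2.66), read lowest at 8.84. With the control difference as a covariate in the fit this probe set turned to -0.89 ± 0.43 (limma adjusted p = 0.25; 0.00048 to 0.25 across all alternatives). The brighter one was at -1.06 ± 0.28 in that fit and lost its call (limma adjusted p = 0.065; range 0.00014 to 0.065). The covariate does not overlap between the genotypes, so it and genotype cannot be told apart in full, and none of the 12 probe sets was called with it, against 6.37% of all. With only dnBrg1 replicates 1 and 2, the dnBrg1 samples described like the wild type ones, the dimmer probe set was at 1.68 and lost its call (adjusted p = 0.068). Against only wild type replicates 1 and 3, with the smaller control differences, it was at 1.08 (limma adjusted p = 0.044), an alternative chosen after the data were seen.

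Cdkn1c, which encodes p57, read near the top of the array, above 97.8% of probe sets. Its levels were 12.84, 12.76, 12.66 and 12.94 in dnBrg1 lenses, and 13.13, 13.21, 13.09 and 12.97 in wild type lenses. The highest dnBrg1 value and the lowest wild type value, both in replicate 4, were neighbors without overlap. Cdkn1c fell by 0.30 on the log2 scale (SE 0.10, adjusted p = 0.043), or 1.23-fold. The call was lost without any 1 of dnBrg1 replicates 1, 2 and 3 and wild type replicates 1, 2 and 3 (log2 fold change -0.35 to -0.25 over all 8 samples left out in turn, limma adjusted p = 0.042 to 0.11).

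Cdkn1a, which encodes p21, a target of p53 that halts the cycle after DNA damage, did not pass with either probe set. With the brighter it read 8.29, 7.63, 7.83 and 8.06 in dnBrg1 lenses, and 8.14, 9.28, 8.04 and 8.46 in wild type lenses. The groups overlapped, and the span in wild type was set by replicate 2, which stood highest. The log2 fold change was -0.52 ± 0.27 (95% interval -1.12 to 0.07, adjusted p = 0.14), and it was 0.91 ± 0.41 with the covariate (limma adjusted p = 0.22; across the alternatives 0.074 to 0.63). Without wild type replicate 2 it was -0.26 (limma adjusted p = 0.28). The dimmer probe set read 6.59 to 6.76 in dnBrg1 lenses and 6.57 to 6.95 in wild type lenses, at -0.05 ± 0.11 (95% interval -0.30 to 0.20, adjusted p = 0.75).

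The 2 INK4 genes differed in whether they passed. Cdkn2d, which encodes p19 Ink4d, read 9.17, 9.02, 9.50 and 9.29 in dnBrg1 lenses, and 8.54, 7.75, 8.86 and 8.22 in wild type lenses. All dnBrg1 values were above all wild type values, and the wild type arrays, highest to lowest, were replicates 3, 1, 4 and 2, which is also their order from the smallest to the largest control difference. Cdkn2d rose 1.87-fold (log2 fold change 0.90 ± 0.22, adjusted p = 0.010). With the covariate it turned to -0.42 ± 0.26 (limma adjusted p = 0.36; across the alternatives 0.0025 to 0.36). It was 0.75 and not called with the described RNA fraction as a covariate or with only dnBrg1 replicates 1 and 2 (limma adjusted p = 0.075 and 0.11). Because all wild type samples share 1 description, both fits must give the same fold change and are not separate checks. Against only wild type replicates 1 and 3 it was at 0.54 (limma adjusted p = 0.043). Cdkn2c, which encodes p18 Ink4c, read 8.53, 8.44, 8.16 and 8.33 in dnBrg1 lenses, and 7.96, 8.01, 8.37 and 8.40 in wild type lenses. These ranges overlapped, with a log2 fold change of 0.18 ± 0.14 (95% interval -0.13 to 0.50, adjusted p = 0.32). The difference between the 2 genes' responses was not tested.

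**Figure D2:**
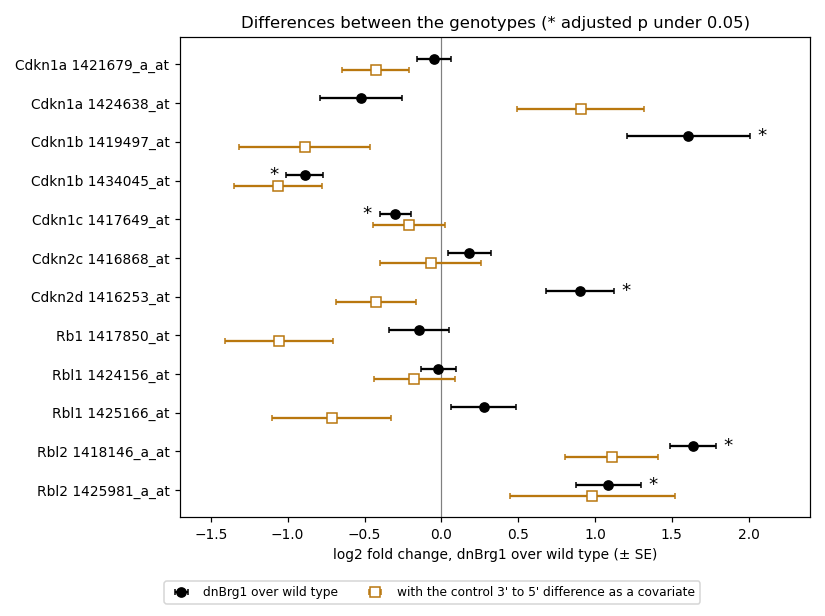
Log2 fold change of dnBrg1 over wild type (horizontal axis, with SE) for the 12 probe sets, without (black, asterisk where called) and with (open squares) the control difference as a covariate. Rbl2 stays near or above 1 in both fits, while the dimmer Cdkn1b probe set and Cdkn2d lie above 0 without the covariate and below 0 with it.

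Among the pocket proteins, Rbl2 rose and Rb1 and Rbl1 did not pass. Rbl2 encodes p130, the pocket protein that predominates in resting cells and takes part in the DREAM repressor complex. With its dimmer probe set it read 6.51, 6.56, 6.72 and 6.48 in dnBrg1 lenses, and 4.68, 4.79, 5.33 and 4.92 in wild type lenses. The groups were more than 1 log2 unit apart at their nearest values. This was the smallest p of the 12 (log2 fold change 1.64 ± 0.15, 3.11-fold, adjusted p = 4.8e-05). With the brighter one Rbl2 read 8.28, 8.27, 8.24 and 7.79 in dnBrg1 lenses, and 6.82, 6.71, 7.03 and 7.65 in wild type lenses. Replicate 4 was the lowest of the dnBrg1 arrays and the highest of the wild type arrays, and the groups still did not overlap. The increase was 2.12-fold (log2 fold change 1.09 ± 0.21, adjusted p = 0.0029). Both increases were called without any 1 sample (0.97 to 1.77 over both). With the covariate they were 1.11 ± 0.30 and 0.98 ± 0.54 and were not called (limma adjusted p = 0.068 and 0.31; across the alternatives 1.2e-05 to 0.068 and 0.00056 to 0.31). Both probe sets had means below the median of all probe sets, so they are not among those kept by a filter on dim signals.

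Rb1, which encodes pRb, read 10.16, 10.0, 9.65 and 9.86 in dnBrg1 lenses, and 9.93, 9.64, 10.56 and 10.11 in wild type lenses. The dnBrg1 values lay inside the wild type range, at a log2 fold change of -0.14 ± 0.20 (95% interval -0.58 to 0.30, adjusted p = 0.58). With the covariate Rb1 was at -1.06 ± 0.35 (limma adjusted p = 0.11; across the alternatives 0.11 to 0.97). Rbl1 encodes p107, the pocket protein of dividing cells, and its gene is itself a target of E2F. With the brighter probe set it read 10.04, 10.16, 10.24 and 10.05 in dnBrg1 lenses, and 9.92, 10.14, 10.34 and 10.17 in wild type lenses, at -0.02 ± 0.11 (95% interval -0.28 to 0.24, adjusted p = 0.91). With the dimmer one it read 8.01, 7.99, 8.36 and 8.22 in dnBrg1 lenses, and 7.55, 7.54, 8.51 and 7.89 in wild type lenses, at 0.27 ± 0.21 (95% interval -0.20 to 0.75, adjusted p = 0.33). Wild type replicate 3 was the highest of all 8 arrays there, and without it the probe set was called higher (log2 fold change 0.49, limma adjusted p = 0.022; across the alternatives 0.022 to 0.76).

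Wild type replicate 3 was the highest wild type array in 7 of the 12 probe sets, replicate 2 was the lowest in 7, and both held in 5. Over all probe sets replicate 3 was highest in 33.1%, replicate 2 was lowest in 33.1%, and both held in 19.5%. The SD was larger in wild type than in dnBrg1 lenses in 10 of the 12, against 70.1% of all. These counts describe the same arrays that give the control difference.

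**Figure D3:**
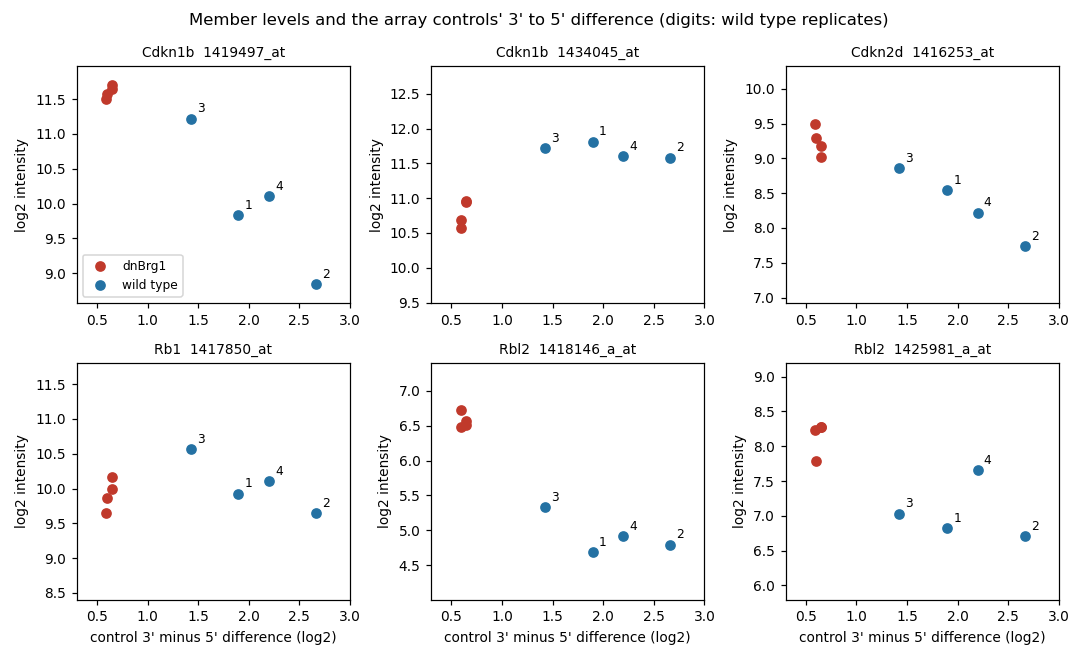
Log2 intensity (vertical axis, the same span in each panel) of 6 member probe sets against the control 3' minus 5' difference (horizontal axis, log2) on each dnBrg1 (red) and wild type (blue) array, with the replicate number beside the wild type points and the dimmer of a gene's probe sets first. The dnBrg1 arrays lie at 0.59 to 0.65 and the wild type arrays at 1.43 to 2.66. The dimmer Cdkn1b probe set, Cdkn2d, Rb1 (by a narrow margin) and the brighter Rbl2 probe set are lowest in wild type replicate 2.

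The 4 genes with 2 probe sets allowed the response of 1 gene to be compared within an array, as the log2 difference between its probe sets. For Cdkn1b, the dimmer minus the brighter was 0.69, 0.76, 0.82 and 1.0 in dnBrg1 lenses, and -1.98, -2.75, -0.50 and -1.50 in wild type lenses. The genotypes did not overlap, and their means were 2.50 apart (two-sided exact permutation p = 0.029, adjusted over the 4 genes p = 0.11). No lower p is possible with 70 assignments, so 1 gene alone among 4 could not pass after adjustment. Of 12821 pairs of probe sets of the same gene over the array, 98.6% had log2 fold changes closer together than those of Cdkn1b, 46.4% had a difference that did not overlap between the genotypes, and 8.04% were called in opposite directions. The corresponding differences were 0.55 for Rbl2 and 0.48 for Cdkn1a (dimmer minus brighter) and -0.29 for Rbl1 (brighter minus dimmer) (exact permutation p = 0.086, 0.26 and 0.14, adjusted p = 0.17, 0.26 and 0.19), and in these 3 genes the groups overlapped. The part of the transcript that each probe set reads was not analysed here.

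The other genes of this pathway were counted on the brightest probe set of each. Of 66 genes measured out of 76 listed, 17 were called higher in dnBrg1 lenses and 19 lower, with a median log2 fold change of -0.08, against -0.11 over the brightest probe sets of all genes. Over the brightest probe sets of all 12393 genes 40.7% were called, 17.5% higher and 23.3% lower. The lists were chosen with earlier results of these data known, and their counts are a description. With the control covariate 3 genes were called higher and 1 lower. These were Cks2, Cul1, Pcna and Zbtb17. The other calls below on the brightest probe set of a gene were lost in that fit.

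**Figure D4:**
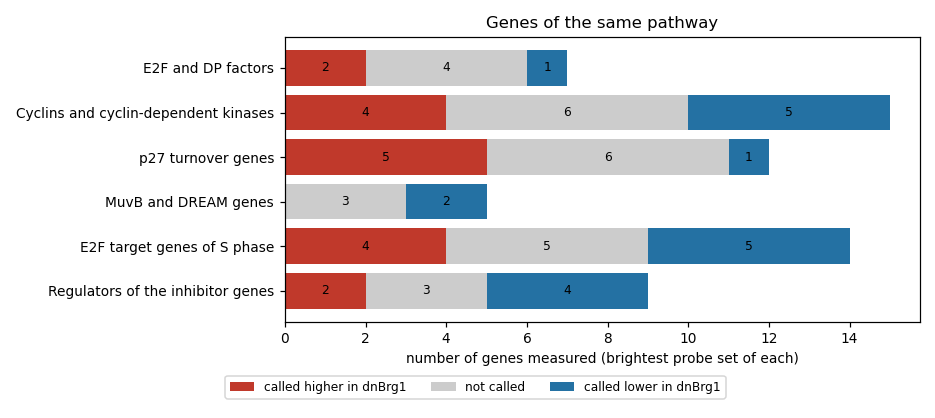
Number of genes measured (horizontal axis) in 6 lists of the pathway, split into genes called higher in dnBrg1 lenses (red), not called (grey) and called lower (blue). Of the 12 genes for p27 turnover 5 were called higher and 1 lower, while in the other lists at least as many were called lower as higher, except for the E2F and DP factors with 2 higher and 1 lower.

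Genes for the turnover of p27 included 5 of 12 called higher and 1 lower (median log2 fold change 0.24). The p27 protein is marked for degradation by the ubiquitin ligase of Skp1, Cul1 and Skp2 with the cofactor Cks1b. Skp2 was not called on its brightest probe set (-0.28 ± 0.11, adjusted p = 0.073). Dim Skp2 probe sets were called higher (0.88 and 1.26), and the others, from -0.40 to 0.36, were not called. With the covariate the first dim one kept its call (1.53, limma adjusted p = 0.034). The second lost it (0.22, limma adjusted p = 0.76). Cul1 rose (0.49 ± 0.12, adjusted p = 0.011) and was called also with the covariate (1.03, limma adjusted p = 0.034). Cks1b averaged 13.21 ± 0.08 in dnBrg1 lenses and 12.56 ± 0.05 in wild type lenses (SD, n = 4). It rose with both probe sets (log2 fold change 0.66 ± 0.09 and 0.76, adjusted p = 0.00044 and 0.00063). With the covariate Cks1b was at 0.52 and 0.73 and was not called (limma adjusted p = 0.15 and 0.14). Its relative Cks2 rose with both as well (1.28 ± 0.10 and 2.09, adjusted p = 3e-05 and 1.7e-05) and was called also with the covariate (1.35 and 1.48, limma adjusted p = 0.022 and 0.025; the highest over the alternatives). Skp1 was split, with 0.72 ± 0.10 on the brighter probe set and -0.59 on the other, both called (0.76 and -0.33 with the covariate). Ubac1, a subunit of another ligase for p27, fell (-0.79 ± 0.20, adjusted p = 0.010) and was at 0.41 with the covariate.

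Cyclin and kinase genes were called in both directions, 4 higher and 5 lower of 15. The lower ones included the cyclin E genes Ccne1 (-0.48) and Ccne2 (-0.41). They also included the cyclin A genes Ccna1 (dim, -0.56) and Ccna2 (-0.57 on the brighter probe set and -0.55, called, on the other). In the order given, these were -0.42, 0.12, -0.49, -0.29 and -0.33 with the covariate and were not called. Ccnd3, a D-type cyclin, rose (log2 fold change 1.06 ± 0.14), as did Cdk7 (0.95 ± 0.12) and its cyclin Ccnh (0.76 ± 0.12), which together activate the cell cycle kinases. With the covariate these were 0.53, 0.49 and 0.28 and were not called. Of the INK4 partners, Cdk4 rose with every probe set (0.39 ± 0.11 on the brightest, 0.45 and 0.41, adjusted p = 0.020, 0.0088 and 0.026). With the covariate these were 0.16, 0.17 and 0.24 and were not called. Cdk6 fell (-1.26 ± 0.34, adjusted p = 0.015) at dim levels, with overlap. It read 3.98 ± 0.40 in dnBrg1 lenses and 5.24 ± 0.71 in wild type lenses (SD, n = 4). With the covariate Cdk6 was at -2.75 (limma adjusted p = 0.050, not called). A dimmer Cdk7 probe set was at -0.11, and further Ccnh probe sets were at 0.69, called (0.13 with the covariate), and -0.38, called only without wild type replicate 3. Ccnd2, another D-type cyclin, was picked out after its values were seen. It rose with 5 of 7 probe sets (log2 fold change 1.83 to 3.02), fell with 1 (-0.99), and was at 0.02 with the brightest. With the covariate the rises of 3.02, 2.21 and 2.36 kept their calls, at 1.998, 1.57 and 2.18. Their limma adjusted p was 0.018, 0.024 and 0.013. The rises of 2.23 and 1.83 lost theirs, at 0.56 and 0.48 (limma adjusted p = 0.27 and 0.34). The fall kept its call, at -1.45 (limma adjusted p = 0.031).

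Among E2F and DP factors, E2f3 fell (-1.13 ± 0.13, adjusted p = 0.00019) and was not called with the covariate (-1.08, limma adjusted p = 0.090). E2f6 and E2f4 rose (0.49 ± 0.16 and 0.29 ± 0.10, adjusted p = 0.031 and 0.036, against 0.92 and 0.21 with the covariate). E2f4, the main E2F partner of p130, averaged 7.82 ± 0.04 in dnBrg1 lenses and 7.53 ± 0.11 in wild type lenses (SD, n = 4). With 1 sample left out, the E2f4 call was kept only without wild type replicate 2 or 3, and that of E2f6, a repressor that binds no pocket protein, only without dnBrg1 replicate 2 or 4 or wild type replicate 2. Of 5 DREAM genes measured none was called higher and 2 lower. Mybl2, a factor that replaces p130 on this complex in dividing cells, fell (-1.18 ± 0.22, adjusted p = 0.0026) with 1 dim probe set (-0.13 ± 0.41 with the covariate, limma adjusted p = 0.88) and was at 0.13 with the other. Lin9, a core subunit, fell (-0.56 ± 0.17, adjusted p = 0.029), but was not called when replicate 3 or 4 of either genotype was left out, and was at -0.92 with the covariate.

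Of 14 S phase genes that E2F controls, 4 were called higher and 5 lower. Pcna rose (0.68 ± 0.10, adjusted p = 0.00057) and was called also with the covariate (0.91, limma adjusted p = 0.043). Rrm1, a ribonucleotide reductase subunit, rose with both probe sets (0.97 ± 0.14 and 2.81, against 0.98 and 1.18 with the covariate, not called). Rfc3, of the clamp loader, rose with 1 (0.99 ± 0.12; the other 0.65, adjusted p = 0.092, called only without wild type replicate 4). Cdt1, the licensing factor of replication origins, fell with 2 of 3 probe sets (-1.27 ± 0.13 and -0.92, against -1.02 and -0.63 with the covariate, not called). Rfc4 was called lower with the brighter probe set (-1.35 ± 0.24) and higher with the other (0.90), and with the covariate they were at 0.03 and 1.17. Of 9 genes that regulate the inhibitors, 2 were called higher and 4 lower. Foxo3, which activates Cdkn1b in other cells, fell with both bright probe sets (-0.93 ± 0.10 and -0.69). Neither was called with the covariate (limma adjusted p = 0.087 and 0.24). Zbtb17, the Miz1 partner of Myc, fell (-1.64 ± 0.13, adjusted p = 3e-05) and was called also with the covariate (-1.06, limma adjusted p = 0.040, the highest over the alternatives). Foxo1 fell with the brightest probe set (-1.07 ± 0.22; 0.21 with the covariate) and rose with a dim one (0.43, adjusted p = 0.025), which was not called when replicate 2 or 4 of either group was left out. Myc rose (0.63 ± 0.21, adjusted p = 0.038), but was not called once dnBrg1 replicate 1 or 2 or wild type replicate 1, 2 or 4 was left out, and was at 0.21 with the covariate. The further inhibitor genes Cdkn2a and Cdkn2b were dim and did not pass (0.12 and -0.72, adjusted p = 0.70 and 0.22). The 2 probe sets of Smarca2 (Brm, the other ATPase of these complexes) were called in opposite directions, at -0.48 ± 0.09 on the brighter and 1.13 ± 0.22 on the other. With the covariate neither was called (limma adjusted p = 0.26 on the brighter, and 0.79 on the other, at 0.24). The authors reported moderately higher Smarca2 in dnBrg1 lenses on the arrays and by quantitative PCR.

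The genes whose levels ran most like those of a member were sought over the 8 arrays, among 10441 bright probe sets of 1 gene. Rbl1 was closest to Nusap1, a spindle protein of dividing cells, and to Nudt5 (Pearson r = 0.96 and 0.93), and none of these 3 differed by more than 0.03 between the genotypes on these probe sets. Rbl2 on its brighter probe set was closest to Rbbp7, a pRb-binding histone chaperone, and to Tdrd3 (both r = 0.98). Cdkn2d was closest to the mitochondrial genes Mrps25 and Timm13 (both r = 0.99), which had log2 fold changes of 0.93 and 0.82. The brighter Cdkn1b probe set was closest to Rtkn and Ogdh (both r = 0.99), Cdkn1c to Eef2kmt and Sec24d (0.97 and 0.96), and Rb1 to Ywhag and Ube2d3 (both 0.98). Cdkn1a was closest to Snx17 and Stk10 (both 0.97) and Cdkn2c to Slc25a46 and Trim13 (0.94 and 0.93). These correlations share the arrays, the genotypes and the control difference, and are a description.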

How the data were processed

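RNA of 4 dnBrg1 and 4 wild type E15.5 lenses was profiled. The authors summarized the Affymetrix scans by robust multichip average (RMA, of unstated version). They deposited linear intensities, of which log2 was taken. Because RMA makes the distributions of the arrays alike, it would remove a shift of most transcripts. Precision is limited by the number of arrays. Groups and replicate numbers came from the sample titles. Polysome-bound RNA is named in the descriptions of the 4 wild type samples and of dnBrg1 replicates 1 and 2, and total RNA alone in those of the other 2, while the protocols give total RNA for all, so this fraction was tried as a covariate. Of 22690 probe sets 64 controls were set aside. Of the others, 20380 name 1 gene, 691 several and 1555 none.

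The genotype difference (dnBrg1 minus wild type) was fitted for all 22626 probe sets with limma 3.58.1 (R 4.3.3), with no covariate, with calls made where the p adjusted by Benjamini-Hochberg was under 0.05. The members and gene lists were chosen with earlier results of these data known. All members and the genes of Brg1 and Brm are given with every probe set, the up to 4 called genes of largest change per list and the 2 genes most alike each member follow a fixed rule, and Ccnd2 was added after its values were seen. Skp2 and Cul1 were added as parts of the ligase for p27, also after their values were seen. Cdk4, Pcna and the cyclin E and A genes were likewise added after their values were seen. Same-gene differences and the controls were compared with two-sided exact permutation tests. Distinct embryonic lenses were used per the methods, and p-values cover only the spread among them. As alternatives the scaling, the variance model, array weights, covariates, a replicate block, the threshold and the methods' t-test were varied, 16 was added before log2, dim probe sets were dropped, and samples were left out.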

Additional observations from a re-analysis of the deposited data

Results flagged for a closer look

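In 6 of 112 groups of 4 arrays the outermost value stood far from the other 3 by Dixon's criterion, where chance gives about 1 in 20. Among the members this was Rbl2 with its brighter probe set, where dnBrg1 replicate 4 (7.79) lay below the next array (8.24), a gap of 0.917 of the range. Among the other genes it was Cdk7 with its brighter probe set (gap 0.843; dnBrg1 replicate 3 highest), Cks1b with its dimmer one (0.879; dnBrg1 replicate 3 highest), E2f4 (0.888; wild type replicate 4 lowest), Rrm1 with its dimmer one (0.857; wild type replicate 3 highest) and Foxo1 with the dim one called higher (0.845; wild type replicate 1 highest).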

How the results depend on the processing

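Adding the control difference to the fit moved the results most: 0 members were called higher and 0 lower (4 and 2 without it), 3 pathway genes higher and 1 lower (17 and 19), and over all probe sets 808 higher and 634 lower (4484 and 4745). It turned the log2 fold change of the dimmer Cdkn1b probe set to -0.89, Cdkn2d to -0.42, the brighter Cdkn1a one to 0.91, Cdkn2c to -0.068 and the dimmer Rbl1 one to -0.71. The median SE was 0.295 with it and 0.145 without, and the cause was not tested. With only dnBrg1 replicates 1 and 2, 2 members were called higher and 1 lower, and 12 pathway genes lower. The described RNA fraction as a covariate left 1 member and 12 pathway genes called lower, as did only wild type replicates 1 and 3. With only dnBrg1 replicates 1 and 2, and with the RNA fraction as a covariate, the dimmer Cdkn1a probe set was at 0.011 and Rb1 at 0.019. The fold changes of these fits are the same by design, and only their errors differ. An adjusted p under 0.01 left 2 members higher and 1 lower, and 11 pathway genes in each direction, and bright probe sets alone left 2 of 9 members higher. Array weights gave the brighter Rbl1 probe set 0.035.

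With 1 sample left out, the members called lower numbered 1 to 2. The dimmer Cdkn1a probe set ran from -0.10 to 0.027, Rb1 from -0.28 to 0.023 and the brighter Rbl1 one from -0.092 to 0.046. The gap between the genotypes (dnBrg1 minus wild type) in the 3' minus 5' value ran from -2.14 to -1.77 for β-actin and from -1.13 to -0.67 for Gapdh. Its exact permutation adjusted p was 0.057 without any 1 dnBrg1 sample. Replicate numbers did not pair the samples (correlations of deviations -0.19 to 0.16). With the replicate block 1 member was called lower, since Cdkn1c lost its call, and no other member's call changed. With the block the gaps between the genotypes in the controls stayed at -1.92 and -0.93 (exact permutation adjusted p = 0.125, the smallest it allows). With 4 arrays a group, a small difference may be missed.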
